A study of Mus musculus with 94 samples.

Results

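The cytochrome P450 enzymes described here are the members of the Cyp gene family that were expressed in mouse white fat. They were taken as every gene symbol beginning with Cyp and a digit, without Cyp51, whose mean over the 47 libraries of a depot was at least 0.5 CPM, the read count scaled to a common library size. Of 97 such symbols among 20411 genes, 32 reached that level in epididymal white adipose tissue (eWAT), the visceral pad beside the testis, and 29 in inguinal white adipose tissue (iWAT), the subcutaneous pad of the groin. Of the 33 members, 28 were members in both depots. Cyp2d9, Cyp2d26, Cyp2j13 and Cyp4f15 were members in eWAT alone, and Cyp3a13 was a member in iWAT alone.

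Poly(A) RNA was sequenced from both depots of 47 male C57BL/6JBomTac mice, 94 libraries in all. High-fat feeding began at 10 weeks of age and lasted 18 weeks, and the 5 obese mice were taken at its end, at 28 weeks of age. Mice in obesity regression had the same diet and then ate the low-fat diet again for 2, 6 or 12 weeks, to the ages of 30, 34 and 40 weeks, with 6 mice at each time. Lean controls of the same ages stayed on the low-fat diet throughout, with 6 mice at each of the 4 times, which gives 8 groups per depot. All mice were of the same strain, the labels name no transgene or deletion, and the mice were housed 3 to a cage.

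Cytochrome P450 enzymes are haem proteins that insert an oxygen atom into small lipophilic molecules. Most sit in the endoplasmic reticulum and take electrons from P450 oxidoreductase, and a mitochondrial group takes them from adrenodoxin. Families numbered from CYP1 to CYP3 are best known for drugs and pollutants, CYP4 enzymes hydroxylate the far end of fatty acids, and the others work on sterols, steroid hormones, retinoic acid and vitamin D. Fat stores many of these lipophilic substrates, although the liver is the main organ of P450 metabolism.

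Promoter sequence is given for Cyp1b1, Cyp2f2 and Cyp4b1, the members with the most higher calls in eWAT, the deepest fall and the rise shared by both depots 2 weeks into regression. The stretches come from RefSeq on build GRCm38.p6, end before the transcript start and are written in the direction of transcription. The Cyp1b1 gene lies on chromosome 17, 79701537 to 79715061 on the minus strand, and its 250 bases before the start are chr17:79715062-79715311. Capitals mark the 5 letters of the aryl hydrocarbon receptor core motif GCGTG, here on the opposite strand and so read as CACGC, 76 to 72 bases before the start.
Cyp1b1: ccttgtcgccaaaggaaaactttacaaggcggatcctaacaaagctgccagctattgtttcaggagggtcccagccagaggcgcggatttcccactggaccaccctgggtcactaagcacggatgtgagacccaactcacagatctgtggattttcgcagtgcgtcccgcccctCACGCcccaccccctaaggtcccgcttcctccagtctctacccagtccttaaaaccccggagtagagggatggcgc
The Cyp2f2 gene lies on chromosome 7, 27119909 to 27133660 on the plus strand, and 204 bases are shown, chr7:27119705-27119908, because an earlier annotated start takes the last 46. Capitals mark AGGTCA, a nuclear receptor half-site, 221 to 216 bases before the RefSeq start.
Cyp2f2: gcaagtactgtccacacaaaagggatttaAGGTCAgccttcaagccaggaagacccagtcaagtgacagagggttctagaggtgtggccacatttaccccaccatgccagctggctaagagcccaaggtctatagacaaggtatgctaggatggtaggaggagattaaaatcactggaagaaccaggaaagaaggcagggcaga
The Cyp4b1 gene lies on chromosome 4, 115624725 to 115647723 on the minus strand, and 248 bases are shown, chr4:115647724-115647971. None of the motifs searched was found in it.
Cyp4b1: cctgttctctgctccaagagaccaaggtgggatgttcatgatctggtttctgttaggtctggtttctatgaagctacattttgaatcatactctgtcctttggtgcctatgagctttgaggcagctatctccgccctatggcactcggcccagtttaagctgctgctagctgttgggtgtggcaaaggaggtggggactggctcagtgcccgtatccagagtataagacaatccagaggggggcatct
Searched on both strands, GCGTG was found in the windows of 9 of the 27 members with a RefSeq promoter and in 28.2% of 32851 windows of all genes. The longer form TNGCGTG, which contains GCGTG, was found in 0 members and in 4.10% of all windows. AGGTCA was found in 3 members (Cyp11a1, Cyp2f2 and Cyp2t4) and in 14.02% of all windows. The sequence TATAAA, read on the given strand, was found in 3 members (Cyp26b1, Cyp2e1 and Cyp8b1) and in 7.59% of all windows. These are letter matches, not measured binding.

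Counts assigned to genes ranged from 1318944 to 25866576 per eWAT library, with a median of 8527647, and from 6268458 to 34327987 per iWAT library, with a median of 9646191. The shallowest library was replicate 2 of the eWAT group at 2 weeks of regression, and the next had 5929260. All 10 adipocyte markers were detected in every group, with summed levels of 13469 to 34544 CPM in eWAT and 11878 to 30180 CPM in iWAT. Mesothelial markers, which line the visceral cavity, summed to 176 to 551 CPM in eWAT and 2.78 to 12.6 CPM in iWAT, where up to 3 of the 8 were at 0 in a group. Macrophage markers were called higher in eWAT for 10, 10, 9 and 10 of 10 genes at obesity and at 2, 6 and 12 weeks, and in iWAT for 10, 2, 0 and 0 of 10. In these bulk samples fewer cells of a type and less RNA per cell cannot be told apart.

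Cyp2e1, which oxidises ethanol, acetone and other small molecules, made up most of the P450 mRNA of both depots in the mean over 47 libraries. Cyp2e1 varied widely among obese and regression mice, as given below, and its share was not computed per mouse. Per kilobase of exon, so that genes of different length can be compared, its mean level was 674 CPM per kb in eWAT and 293 CPM per kb in iWAT. That was 79.8% of the summed level of all members in eWAT and 64.7% in iWAT. The next levels were far lower. Cyp27a1, the mitochondrial sterol hydroxylase, stood at 31.6 CPM per kb in eWAT and 26.8 CPM per kb in iWAT. Cyp4b1 stood at 24.4 and 21.5 CPM per kb, Cyp2d22 at 21.6 and 18.2 CPM per kb, and Cyp4v3 at 20.5 and 18.0 CPM per kb, in eWAT and iWAT in turn. Cyp2f2 and Cyp2s1 were less even, Cyp2f2 at 5.94 CPM per kb in eWAT against 19.4 CPM per kb in iWAT and Cyp2s1 at 2.94 against 0.228 CPM per kb.

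**Figure D1:**
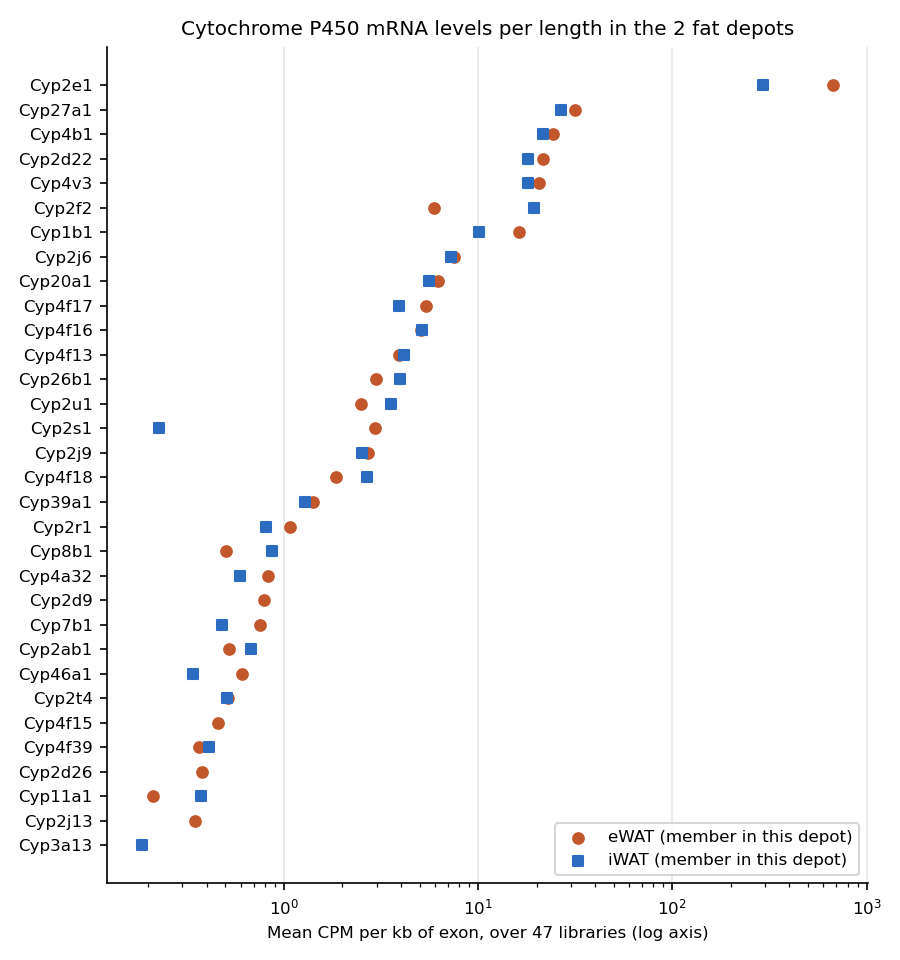
Mean level of each member in CPM per kb of exon (log axis) over the 47 libraries of each depot, circles for eWAT and squares for iWAT, drawn only where the gene was a member in that depot. Cyp2e1 stands apart at 674 and 293 CPM per kb, and Cyp2s1 and Cyp2f2 show the widest gaps between depots. Cyp2c44 had no exon length in the annotation used and is not drawn.

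The members closest above the minimum in eWAT were Cyp2d26 at a mean of 0.680 CPM and Cyp2c44 at 0.725 CPM, and those closest below it were Cyp2b10 at 0.414 CPM and Cyp4f14 at 0.386 CPM. In iWAT the nearest members above were Cyp2c44 at 0.521 CPM and Cyp3a13 at 0.549 CPM, and the nearest genes below were Cyp2b10 at 0.476 CPM and Cyp26c1 at 0.414 CPM. Of the 65 family genes under the minimum in eWAT 2 had no count in any library, and of the 68 in iWAT 8 had none. All 32 eWAT members and 28 of the 29 iWAT members passed the count filter and were tested, and Cyp2c44 in iWAT did not. Cyp4a32 shared 28.0% of its 75-base stretches with other genes, mainly Cyp4a10 and Cyp4a31, so its counts are uncertain. The same share was 10.1% for Cyp4f16, 9.30% for Cyp2d9, 5.59% for Cyp4b1 and 1.51% for Cyp2d22.

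At the end of the high-fat diet 12 members were called in iWAT and 5 in eWAT, and 2 weeks later 5 and 9 were. A call is an adjusted p under 0.05 in edgeR's quasi-likelihood test with Benjamini-Hochberg adjustment over all genes tested. Against lean mice of the same age, 5 of 32 members were called in eWAT, 2 higher and 3 lower, which is 15.6% of the members beside 23.4% of all genes (14.1% higher and 9.31% lower). In iWAT 12 of 28 were called, 7 higher and 5 lower, which is 42.9% beside 30.2% of all genes (14.7% higher and 15.5% lower). These 12 include Cyp3a13, a member only through the obese libraries in which it was higher. The members' median log2 fold change was 0.13 in eWAT, beside 0.00 for all genes, and 0.20 in iWAT, beside 0.02.

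In eWAT at 2 weeks, 9 members were called, 5 higher and 4 lower, which is 28.1% beside 35.7% of all genes (18.6% higher and 17.1% lower). In iWAT at 2 weeks, 5 were called, 3 higher and 2 lower, which is 17.9% beside 18.8% of all genes (9.44% higher and 9.37% lower). At 6 weeks 1 eWAT member was called, 3.12% beside 7.58%, and at 12 weeks 4 were called, 2 higher and 2 lower, 12.5% beside 15.3% (10.8% higher and 4.51% lower). In iWAT no member was called by edgeR at 6 weeks, when 1.04% of all genes were, or at 12 weeks, when 0.0288% were. In those iWAT comparisons 3 and 5 members had an unadjusted p under 0.05, and DESeq2 called 0 and 1. The shares of all genes by these 2 rules were not computed, here or below, so such counts are no result about the family. Groups did not overlap with their lean controls for 4, 5, 1 and 0 of 32 members in eWAT and for 6, 3, 0 and 0 of 29 in iWAT, at obesity and at 2, 6 and 12 weeks. Of all genes tested 9.32%, 12.6%, 3.07% and 1.61% did not overlap in eWAT and 17%, 4.61%, 2.49% and 0.662% in iWAT.

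**Figure D2:**
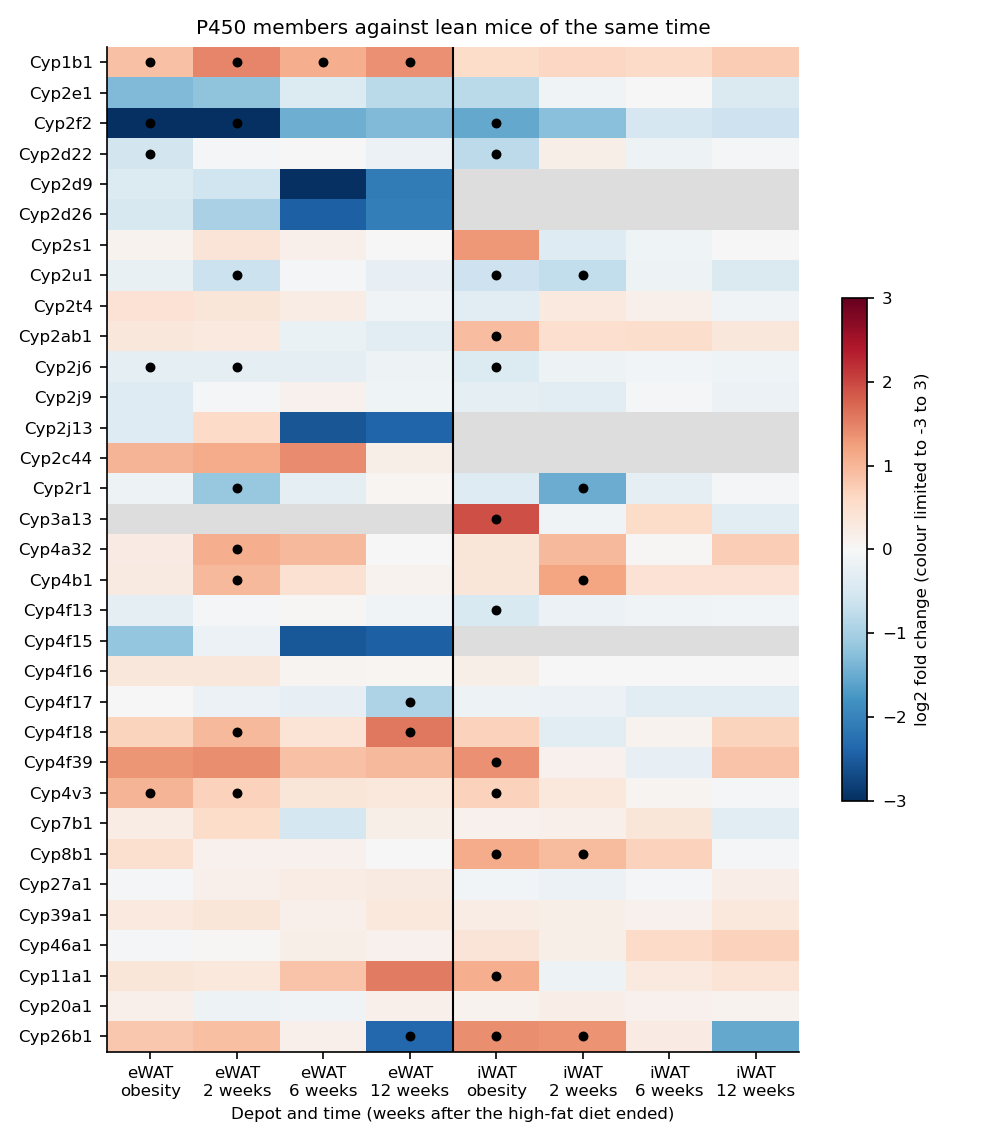
Log2 fold change (colour, limited to -3 to 3) of each member against lean mice of the same time, in 4 eWAT and 4 iWAT columns. A dot marks an adjusted p under 0.05 and grey marks a gene that was no member or was not tested in that depot. Cyp1b1 has a dot in all 4 eWAT columns, and the 2 last iWAT columns have none.

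Among the CYP2 enzymes outside the CYP2J, CYP2C and vitamin D groups, 2 of 9 fell in eWAT at obesity and 2 at 2 weeks, beside 9.31% and 17.1% of all genes. None rose, and the median log2 fold change was -0.41 and -0.61. In iWAT 3 of 7 fell and 1 rose at obesity, beside 15.5% and 14.7% of all genes, and 1 fell at 2 weeks, beside 9.37%. Cyp2f2, known from lung club cells as the enzyme that activates naphthalene, had the deepest fall. In eWAT the 5 obese mice had 1.41, 0.332, 3.46, 0.315 and 2.11 CPM, and lean mice had 7.59 to 22.7 CPM with a median of 17.9 CPM. Every obese mouse was below every lean mouse. Cyp2f2 was lower by a log2 fold change of -3.51 ± 0.60 (SE, adjusted p = 7.94e-05), and the lean mean was 11.2 times the obese mean. The value was -3.38 (adjusted p = 0.00344) in replicates 1 to 3 and -3.75 (adjusted p = 0.0145) in the others.

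After 2 weeks of regression eWAT Cyp2f2 was still low, at 0.733 to 4.16 CPM with a median of 2.04 CPM, against 7.88 to 34.0 CPM with a median of 18.8 CPM in lean mice. The groups again did not overlap, and the log2 fold change was -3.36 ± 0.57 (SE, adjusted p = 2.33e-05). At 6 weeks Cyp2f2 ranged from 1.23 to 15.1 CPM with a median of 3.80 CPM, against 9.50 to 17.2 CPM with a median of 15.3 CPM. At 12 weeks Cyp2f2 ranged from 3.03 to 32.1 CPM with a median of 6.19 CPM, against 15.5 to 38.7 CPM with a median of 25.2 CPM. At both of these times 5 of 6 regression mice were below every lean mouse and 1 was within the lean range. Neither difference was called, with log2 fold changes of -1.47 ± 0.50 (adjusted p = 0.0587) and -1.32 ± 0.48 (adjusted p = 0.0553). The change of the Cyp2f2 difference from obesity to 12 weeks was 2.19 ± 0.75 on the log2 scale (adjusted p = 0.121).

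In iWAT Cyp2f2 was 12.5, 7.19, 43.4, 1.98 and 23.98 CPM in the obese mice, and 25.97 to 96.3 CPM with a median of 48.1 CPM in lean mice. Of the obese mice 4 were below every lean mouse, and replicate 3 was within the lean range. The log2 fold change was -1.54 ± 0.54 (SE, adjusted p = 0.0259). This iWAT call was lost, at adjusted p from 0.0653 to 0.0795, without lean replicate 2 or without obese replicate 1, 2 or 4. At 2 weeks iWAT Cyp2f2 ranged from 6.25 to 50.002 CPM, against 35.1 to 88.6 CPM, and was not called (-1.24 ± 0.50, adjusted p = 0.0723).

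Cyp2e1 varied far more among obese and regression mice than among lean mice. In eWAT the obese mice had 1579.8, 285, 2089, 27.4 and 522 CPM, and the lean mice had 1255 to 2783 CPM with a median of 2545 CPM. Obese replicates 2, 4 and 5 lay below every lean mouse, and replicates 1 and 3 lay within the lean range. Cyp2e1 was not called at obesity (-1.32 ± 0.59, SE, adjusted p = 0.103), and without obese replicate 3 it was (-1.89, adjusted p = 0.0259). At 2 weeks it was 187 to 2555 CPM with a median of 629 CPM, against 1565 to 3005 CPM with a median of 1884 CPM. There 5 of 6 regression mice were below every lean mouse. The difference was not called (-1.20 ± 0.56, adjusted p = 0.0884), and without regression replicate 1 it was (-1.83, adjusted p = 0.00929). Fitted apart, replicates 4 to 6 gave a call of lower eWAT Cyp2e1 at both times and replicates 1 to 3 at neither. Cyp2e1 was also called at obesity with the random block of mouse-number runs. Over the alternatives without omissions its log2 fold change ran from -2.97 to -0.81 at obesity and from -2.83 to -0.48 at 2 weeks.

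In iWAT Cyp2e1 was not called at any time, with log2 fold changes of -0.80 ± 0.45 at obesity (adjusted p = 0.176) and -0.10, 0.01 and -0.43 at 2, 6 and 12 weeks. Obese iWAT had 572, 437.1, 1006, 127 and 294 CPM of Cyp2e1, and lean iWAT had 392.97 to 1204 CPM with a median of 931 CPM. The obese mouse with the lowest Cyp2e1 in eWAT, replicate 4, also had the lowest Cyp2e1 and Cyp2f2 in iWAT. Adipocyte markers summed to 15553 to 32448 CPM in obese eWAT against 19828 to 34544 CPM in lean eWAT, and 4 of 10 were called lower and 1 higher. At 2 weeks 5 of 10 were called lower. Their part in the Cyp2f2 and Cyp2e1 values was not tested.

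**Figure D3:**
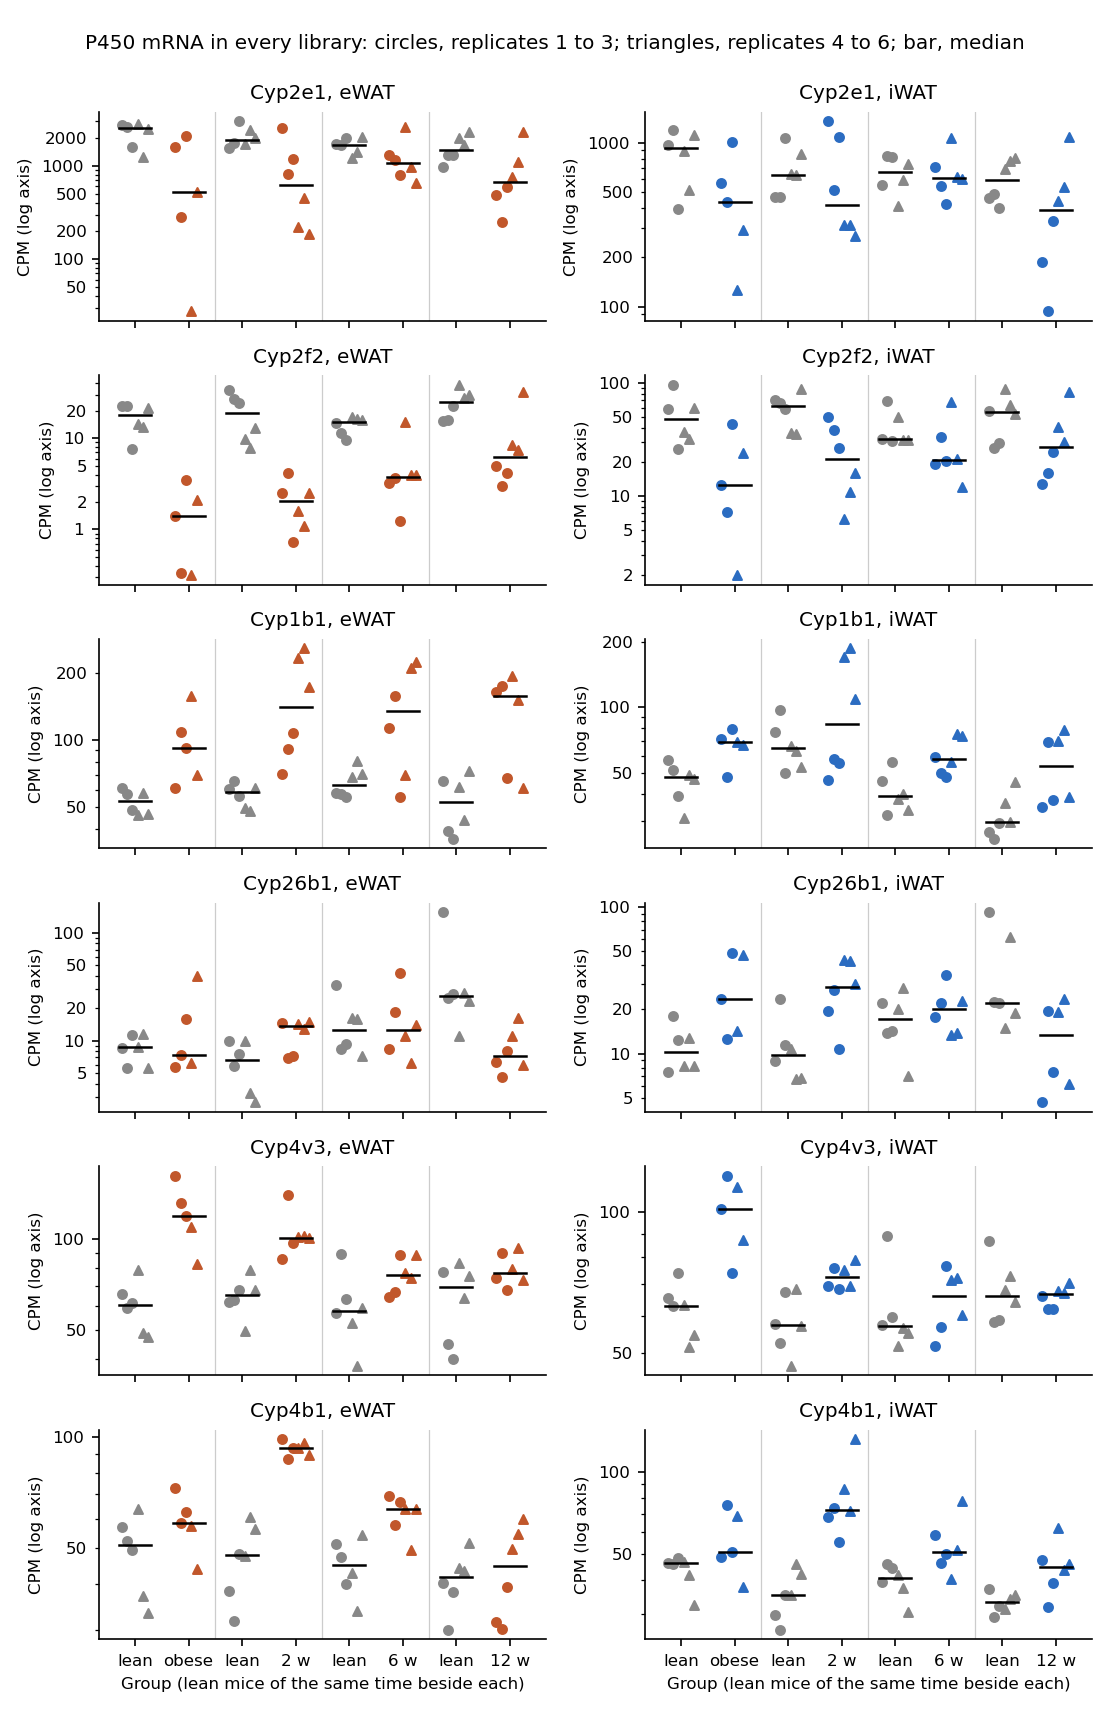
CPM of 6 members in every library (log axis), eWAT on the left and iWAT on the right, each group beside its lean controls in grey. Circles are replicates 1 to 3, triangles replicates 4 to 6, and bars are medians. Cyp2f2 in eWAT and Cyp4b1 at 2 weeks show groups that do not overlap, and Cyp1b1 at 2 weeks splits by replicate number.

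Cyp2d22, a CYP2D enzyme of drug metabolism, fell in both depots at obesity and was not called in either at 2 weeks. In eWAT the obese mice had 52.0, 51.5, 67.9, 48.1 and 60.8 CPM, against 70.9 to 87.2 CPM with a median of 81.5 CPM. In iWAT they had 35.6, 50.5, 45.4, 43.3 and 53.9 CPM, against 60.4 to 93.7 CPM with a median of 82.7 CPM. The groups did not overlap in either depot. The log2 fold changes were -0.54 ± 0.13 in eWAT (SE, adjusted p = 0.00174) and -0.79 ± 0.14 in iWAT (adjusted p = 3.12e-05). At 2 weeks iWAT Cyp2d22 ranged from 54.8 to 86.2 CPM against 41.7 to 71.2 CPM in lean mice. The iWAT difference from lean changed between obesity and 2 weeks by 0.95 ± 0.19 on the log2 scale (adjusted p = 0.0026), and between obesity and 12 weeks by 0.75 ± 0.19 (adjusted p = 0.0115). With the random block of mouse-number runs the latter was 0.72 (adjusted p = 0.0798).

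Cyp2d22 was the 1 iWAT member called for a change from obesity to 2 weeks, beside 4% of all genes. From obesity to 12 weeks 3 iWAT members were called, beside 4.85% of all genes, and from obesity to 6 weeks 0 were, beside 1.38%, with 4 at an unadjusted p under 0.05 and 2 called by DESeq2. In eWAT the changes from obesity to 2 and 6 weeks held 0 called members by edgeR, beside 5.82% and 1.21% of all genes. There 3 and 4 members had an unadjusted p under 0.05, and DESeq2 called 2 and 0. From obesity to 12 weeks 1 eWAT member was called, beside 2.32%.

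Cyp2u1, a hydroxylase of long-chain fatty acids, fell at 2 weeks in both depots. In eWAT it was 7.57 to 14.7 CPM with a median of 10.1 CPM, against 13.3 to 19.3 CPM with a median of 16.7 CPM. In iWAT it was 9.59 to 13.5 CPM with a median of 11.1 CPM, against 10.1 to 26.04 CPM with a median of 17.5 CPM. The groups overlapped in both depots, in eWAT by 1 regression mouse. Cyp2u1 had a log2 fold change of -0.63 ± 0.15 in eWAT (SE, adjusted p = 0.00129) and -0.73 ± 0.18 in iWAT (adjusted p = 0.00447). At obesity it was lower in iWAT (-0.61 ± 0.19, adjusted p = 0.0124), and the call was lost without obese replicate 3 (adjusted p = 0.0594).

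Cyp2ab1 was called higher in obese iWAT, at 3.66, 2.70, 4.07, 4.45 and 2.66 CPM against 1.30 to 3.24 CPM with a median of 1.62 CPM. Lean replicate 1 alone reached the obese range. Cyp2ab1 differed by 0.92 ± 0.36 on the log2 scale (SE, adjusted p = 0.0487). The Cyp2ab1 call was lost in 8 of the 11 fits that each left out 1 library (lean replicates 2 to 6, obese replicates 1, 3 and 4), at adjusted p from 0.0770 to 0.114.

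Cyp1b1, which the aryl hydrocarbon receptor induces and which hydroxylates oestradiol and polycyclic aromatic compounds, was the one member called higher by edgeR in eWAT at all 4 times. Its obese values were 61.1, 109, 91.9, 159 and 69.7 CPM, and lean mice had 46.1 to 60.7 CPM with a median of 53.0 CPM. At 2 weeks Cyp1b1 ranged from 70.2 to 259 CPM with a median of 141 CPM, against 48.2 to 65.8 CPM with a median of 58.3 CPM. At neither time did the groups overlap. The mRNA was 1.85-fold higher at obesity (log2 0.89 ± 0.31, SE, adjusted p = 0.0347) and 2.76-fold higher at 2 weeks (1.47 ± 0.30, adjusted p = 0.000254).

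At 6 weeks eWAT Cyp1b1 ranged from 55.7 to 226 CPM with a median of 136 CPM, against 55.8 to 81.1 CPM with a median of 63.1 CPM. At 12 weeks Cyp1b1 ranged from 61.0 to 195 CPM with a median of 158 CPM, against 36.0 to 72.4 CPM with a median of 52.7 CPM. At each of these times 4 of 6 regression mice were above every lean mouse and the other 2 were not. The fold was 2.13 at 6 weeks (log2 1.09 ± 0.30, adjusted p = 0.0212) and 2.57 at 12 weeks (1.36 ± 0.30, adjusted p = 0.00241).

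The Cyp1b1 calls at obesity and 6 weeks rested on few libraries. The obesity call was lost without lean replicate 3, 4 or 6 or without obese replicate 2 or 4 (adjusted p from 0.0561 to 0.190), and the 6-week call without regression replicate 5 or 6 (0.0716 to 0.105). At 2 weeks Cyp1b1 was 70.2 to 108 CPM in regression replicates 1 to 3 and 174 to 259 CPM in replicates 4 to 6. These are 2 separate runs of mouse numbers. Fitted apart, they gave log2 fold changes of 0.55 (adjusted p = 0.287) and 2.08 (adjusted p = 0.00465). In limma with these runs as a random block, Cyp1b1 was not called at obesity (0.82, adjusted p = 0.0852) or at 6 weeks (0.92, adjusted p = 0.16).

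In iWAT Cyp1b1 was not called at any time, with log2 fold changes of 0.55 (adjusted p = 0.114), 0.62 (0.0822), 0.57 (0.231) and 0.77 (0.18) at obesity and at 2, 6 and 12 weeks. The obese iWAT values were 71.7, 47.8, 79.2, 69.3 and 67.1 CPM, against 31.2 to 57.3 CPM with a median of 47.9 CPM, so 4 of 5 were above every lean mouse. Cyp1b1 at 2 weeks in iWAT was 46.2, 58.1 and 55.4 CPM in replicates 1 to 3 and 170, 186 and 109 CPM in replicates 4 to 6. The same 3 mice were thus the highest in both depots. Macrophage markers summed to 767 to 4354 CPM in obese eWAT against 468.4 to 604 CPM in lean eWAT, and to 1211 to 4203 CPM against 491 to 720 CPM at 2 weeks. At 6 weeks the sums were 755 to 4731 CPM against 458.2 to 689 CPM and at 12 weeks 662 to 4455 CPM against 386 to 932 CPM. Progenitor and fibroblast markers were called higher for 8, 6, 4 and 3 of 10 genes at the 4 times. The part of these cells in the Cyp1b1 rise was not tested.

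Of 6 other genes of the receptor's battery tested, 1 was higher and 2 lower in eWAT at obesity, and 1 and 1 at 2 weeks, 1 and 1 at 6 weeks and 2 and 0 at 12 weeks. Of all genes 14.1% were higher and 9.31% lower at obesity, 18.6% and 17.1% at 2 weeks, 10.8% and 4.51% at 12 weeks, and 7.58% in either direction at 6 weeks. The median log2 fold change of the list was between -0.31 and 0.00 at these times. Ahr itself, the receptor, was higher at 2 weeks (log2 0.36) and at 12 weeks (0.65, adjusted p = 0.00187), and stood at -0.27 at obesity (adjusted p = 0.196). Ahrr, its repressor, was called at 12 weeks (1.24 ± 0.42, adjusted p = 0.0379). Nqo1, a quinone reductase, was lower at obesity (-0.55). Lrp1 was the list's other higher gene, by 0.60, 0.72, 0.73 and 0.64 on the log2 scale at the 4 times.

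Of the fatty acid hydroxylases of the CYP4 family, 1 of 9 in eWAT rose at obesity, where 14.1% of all genes did, and 4 rose at 2 weeks, where 18.6% did. None was called lower at these times, and the median log2 fold change at 2 weeks was 0.68 beside 0.02 for all genes. At 12 weeks 1 rose and 1 fell, beside 10.8% and 4.51% of all genes. In iWAT 2 of 8 rose and 1 fell at obesity, beside 14.7% and 15.5% of all genes, and 1 rose at 2 weeks, beside 9.44%. Cyp4v3, the mouse counterpart of CYP4V2, rose in both depots at obesity. The obese eWAT values were 163, 132, 120, 110 and 83.0 CPM, against 47.2 to 78.8 CPM with a median of 60.4 CPM in lean mice. The obese iWAT values of Cyp4v3 were 102, 120, 74.2, 113 and 87.1 CPM, against 51.4 to 74.2 CPM with a median of 63.0 CPM. The groups did not overlap in either depot, although the lowest obese and highest lean iWAT values were close. Cyp4v3 was 2.02-fold higher in eWAT (log2 1.02 ± 0.18, SE, adjusted p = 8.63e-05) and 1.60-fold higher in iWAT (0.68 ± 0.12, adjusted p = 6.91e-05).

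At 2 weeks eWAT Cyp4v3 was 85.8 to 140 CPM with a median of 101 CPM, against 49.5 to 79.2 CPM with a median of 65.1 CPM. The groups did not overlap, and the fold was 1.60 (log2 0.68 ± 0.17, adjusted p = 0.00159). In iWAT at 2 weeks the range was 68.5 to 79.1 CPM against 46.8 to 68.4 CPM, again with no overlap, but the difference was not called (0.32 ± 0.12, adjusted p = 0.051). In iWAT the Cyp4v3 difference from lean shrank between obesity and 12 weeks by 0.73 on the log2 scale (-0.73 ± 0.17, adjusted p = 0.00863), and with the random block of mouse-number runs it was -0.70 (adjusted p = 0.0595). In eWAT the same change was -0.70 ± 0.24 (adjusted p = 0.13).

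Cyp4b1, which hydroxylates medium-chain fatty acids, rose in both depots 2 weeks after the diet ended. In eWAT the 6 regression mice had 87.4 to 98.8 CPM with a median of 93.6 CPM, and lean mice had 31.8 to 60.8 CPM with a median of 48.0 CPM. In iWAT they had 55.1 to 132 CPM with a median of 72.8 CPM, against 26.3 to 45.8 CPM with a median of 35.3 CPM. All 6 mice were above every lean mouse in both depots. Cyp4b1 was 1.98-fold higher in eWAT (log2 0.98 ± 0.16, SE, adjusted p = 1.56e-05) and 2.27-fold higher in iWAT (1.18 ± 0.17, adjusted p = 8.84e-06). In replicates 1 to 3 and 4 to 6 apart it was 1.24 and 0.77 in eWAT and 1.11 and 1.25 in iWAT, each called.

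At obesity Cyp4b1 was not called, at 73.0, 58.7, 62.6, 57.5 and 44.1 CPM in eWAT against 33.4 to 63.8 CPM in lean mice (log2 0.28 ± 0.17, adjusted p = 0.242). In obese iWAT it was 48.5, 75.9, 50.6, 68.8 and 37.9 CPM against 32.5 to 48.4 CPM and was not called either (0.37 ± 0.18, adjusted p = 0.114). At 6 weeks 5 of 6 regression mice were above every lean mouse in each depot, with log2 fold changes of 0.46 ± 0.16 in eWAT (adjusted p = 0.0664) and 0.44 ± 0.17 in iWAT (adjusted p = 0.169). The change of the Cyp4b1 difference from obesity to 2 weeks in eWAT was 0.71 ± 0.23 (adjusted p = 0.0592).

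Cyp4f18, a hydroxylase of leukotriene B4 known from neutrophils, was called higher in eWAT at 2 and 12 weeks. At 12 weeks Cyp4f18 was 1.94 to 7.14 CPM with a median of 5.54 CPM, against 0.464 to 2.45 CPM with a median of 1.63 CPM. There 5 of 6 regression mice were above every lean mouse. Its log2 fold change was 1.58 ± 0.33 (SE, adjusted p = 0.00156). At 2 weeks Cyp4f18 was 2.27 to 5.86 CPM against 1.12 to 3.65 CPM (0.97 ± 0.33, adjusted p = 0.0179), a call lost without lean replicate 6 (adjusted p = 0.0545). All 10 macrophage markers were higher at both times, and their part was not tested.

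Cyp4f17 fell in eWAT at 12 weeks, when it was 8.64 to 17.0 CPM with a median of 10.2 CPM against 14.6 to 38.9 CPM with a median of 19.0 CPM. All but 1 regression mouse were below every lean mouse. Its log2 fold change was -0.93 ± 0.24 (SE, adjusted p = 0.00677). Cyp4f13 fell in obese iWAT, to 14.5, 16.4, 16.3, 12.4 and 16.1 CPM against 17.1 to 25.02 CPM with a median of 19.8 CPM. These groups did not overlap, and the log2 fold change of Cyp4f13 was -0.46 ± 0.10 (adjusted p = 0.000486).

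Cyp4a32, with its shared sequence, was called higher in eWAT at 2 weeks (1.59 to 4.43 CPM against 0.913 to 1.42 CPM, log2 1.098 ± 0.35, adjusted p = 0.0124). The groups did not overlap, and the call was lost without regression replicate 6 (adjusted p = 0.0591). Cyp4f39, the counterpart of CYP4F22, was called higher in obese iWAT, at 1.58, 2.21, 1.86, 2.08 and 1.58 CPM against 0.445 to 0.966 CPM. All 5 obese mice were above every lean mouse of the same time. Over the 24 lean mice of all times iWAT Cyp4f39 reached 4.78 CPM, above the obese values. Cyp4f39 differed by a log2 fold change of 1.36 ± 0.54 (adjusted p = 0.0492), and each of the 11 fits that left out 1 library gave an adjusted p above the threshold, from 0.0514 to 0.0893.

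Cyp26b1, which breaks down retinoic acid, was called higher in iWAT at obesity and at 2 weeks, and lower in eWAT at 12 weeks. In iWAT the obese mice had 23.7, 12.7, 48.8, 14.2 and 46.97 CPM, against 7.48 to 17.9 CPM with a median of 10.3 CPM. At 2 weeks iWAT Cyp26b1 was 10.7 to 43.5 CPM with a median of 28.5 CPM, against 6.71 to 23.6 CPM with a median of 9.82 CPM. Obese replicates 1, 3 and 5, and 4 of 6 mice at 2 weeks, were above every lean mouse. The log2 fold change was 1.39 ± 0.46 at obesity (SE, adjusted p = 0.0177) and 1.34 ± 0.44 at 2 weeks (adjusted p = 0.0298).

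Those iWAT calls of Cyp26b1 did not withstand every omission. The obesity call was lost without obese replicate 3 or 5 (adjusted p 0.0593 to 0.0731). The 2-week call was lost in 7 of 12 fits, without lean replicate 1, 3, 4, 5 or 6 or without regression replicate 4 or 5 (0.0503 to 0.0736). Both calls were also lost with the random block of mouse-number runs and in replicates 1 to 3 fitted apart. Over the alternatives without omissions the 2-week log2 fold change ran from 0.38 to 2.26. Progenitor and fibroblast markers summed to 4763 to 8623 CPM in obese iWAT against 2095 to 4312 CPM in lean iWAT, with 8 of 10 called higher, and at 2 weeks to 4499 to 16737 CPM against 3961 to 9158 CPM, with 0 called. Their part in the Cyp26b1 values was not tested.

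At 12 weeks eWAT Cyp26b1 was 4.60 to 16.2 CPM with a median of 7.19 CPM, against 11.04 to 157 CPM with a median of 26.2 CPM in lean mice. Of the regression mice 4 were below every lean mouse, and lean replicate 1 alone exceeded 27.6 CPM. The log2 fold change was -2.35 ± 0.53 (SE, adjusted p = 0.00241). Without lean replicate 1 the Cyp26b1 value was -1.37 (adjusted p = 0.041), and it was -3.48 (adjusted p = 0.0231) in replicates 1 to 3 and -0.88 (adjusted p = 0.398) in replicates 4 to 6. In iWAT at 12 weeks Cyp26b1 was 4.66 to 23.6 CPM against 14.9 to 92.2 CPM and was not called (-1.54 ± 0.44, adjusted p = 0.132).

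The lean mice themselves differed between the first and last time. Lean Cyp26b1 in eWAT was 5.57 to 11.6 CPM at the obesity time and 11.04 to 157 CPM at the 12-week time, and in iWAT it was 7.48 to 17.9 and 14.9 to 92.2 CPM. The log2 difference was 2.40 ± 0.53 in eWAT and 1.80 ± 0.45 in iWAT (adjusted p = 0.0466 in each), and without lean replicate 1 of 12 weeks the eWAT value was 1.43 (adjusted p = 0.23). Cyp26b1 was the 1 member called for this age difference in each depot, beside 0.105% of all genes in eWAT and 0.496% in iWAT. The age calls of Cyp26b1 were lost in 6 of 12 fits in eWAT (lean replicates 1 and 3 of 12 weeks, lean replicates 1, 2, 4 and 6 of the obesity time) and in 9 of 12 in iWAT (replicates 1, 3 and 5 of 12 weeks and all 6 of the obesity time). The lowest and highest adjusted p of these fits were 0.0903 and 0.230 in eWAT and 0.0519 and 0.212 in iWAT.

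The change of the Cyp26b1 difference from obesity to 12 weeks was -3.16 ± 0.75 in eWAT (adjusted p = 0.0124) and -2.94 ± 0.64 in iWAT (adjusted p = 0.00405) on the log2 scale. The eWAT change was not called without lean replicate 1 of 12 weeks (-2.19, adjusted p = 0.0723) or without obese replicate 5 (-2.39, adjusted p = 0.0702). With marker signals of the epididymis, vas deferens and efferent ducts as terms, the eWAT values of Cyp26b1 were -1.29 at 12 weeks (adjusted p = 0.105) and -1.58 for the change from obesity (adjusted p = 0.25).

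Other genes of retinoid handling were called in both directions. In eWAT 3 of 12 tested were higher and 3 lower at obesity, beside 14.1% and 9.31% of all genes, and 5 and 3 at 2 weeks, beside 18.6% and 17.1%. In iWAT 5 of 10 were higher and 1 lower at obesity, with a median log2 fold change of 0.48, beside 14.7% and 15.5% of all genes, and 3 and 1 at 2 weeks, beside 9.44% and 9.37%. Aldh1a2, which makes retinoic acid, was higher in obese iWAT (1.86, adjusted p = 4.87e-05). Aldh1a1 was higher in iWAT at obesity (0.95, adjusted p = 8.70e-05) and at 2 weeks (0.52, adjusted p = 0.0293). It was lower in eWAT at 12 weeks (-0.56, adjusted p = 0.00578) and was not called in the other comparisons with lean mice. Rbp4, the plasma carrier of retinol, was lower in eWAT at obesity and at 2 weeks (-1.55 at each) and in iWAT (-0.99 and -0.95).

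Cyp2r1, the vitamin D hydroxylase of the first activation step, fell in both depots at 2 weeks. In iWAT it was 0.462 to 1.30 CPM with a median of 0.754 CPM, against 1.32 to 2.97 CPM with a median of 2.27 CPM. In eWAT it was 0 to 2.25 CPM with a median of 1.02 CPM, against 1.14 to 3.35 CPM with a median of 2.43 CPM. The iWAT groups did not overlap, and in eWAT 5 of 6 regression mice were below every lean mouse. The library with 0 reads of Cyp2r1 was the shallowest, 1318944 counts in all, where a count of 0 allows up to 2.08 CPM. Cyp2r1 had log2 fold changes of -1.48 ± 0.29 in iWAT (SE, adjusted p = 0.000387) and -1.13 ± 0.31 in eWAT (adjusted p = 0.00341).

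Cyp2j6, of the arachidonic acid epoxygenases, was slightly lower in obese mice. In iWAT it was 22.7, 23.3, 26.2, 22.8 and 20.9 CPM, against 26.3 to 35.2 CPM with a median of 31.5 CPM, and in eWAT it was 26.4, 28.1, 28.1, 18.1 and 23.98 CPM, against 26.7 to 37.7 CPM. The iWAT groups just failed to overlap and the eWAT groups overlapped. Cyp2j6 differed on the log2 scale by -0.42 ± 0.13 in iWAT (SE, adjusted p = 0.0097) and -0.29 ± 0.11 in eWAT (adjusted p = 0.0487). It was -0.27 ± 0.11 in eWAT at 2 weeks (adjusted p = 0.0423). The eWAT calls of Cyp2j6 were lost in 5 of 11 fits at obesity (without lean replicate 1, 2 or 4 or obese replicate 4 or 5, adjusted p 0.0632 to 0.305) and in 8 of 12 at 2 weeks (without lean replicate 3, 4 or 5 or regression replicates 2 to 6, 0.0684 to 0.127).

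The sterol and bile acid enzymes gave no call in eWAT. None of the 5 (Cyp27a1, Cyp39a1, Cyp46a1, Cyp7b1 and Cyp8b1) was called there against lean mice at any time by edgeR, and the smallest adjusted p was 0.166, for Cyp27a1 at 12 weeks. Cyp27a1 in obese eWAT was 63.2, 47.9, 80.7, 53.3 and 61.4 CPM, against 55.9 to 69.3 CPM with a median of 63.6 CPM, so obese mice lay on both sides of the lean range. Its log2 fold change in eWAT was -0.06, 0.16, 0.23 and 0.26 at the 4 times. In iWAT Cyp8b1, the sterol hydroxylase that shapes cholic acid in liver, was 1.91, 1.78, 3.72, 2.87 and 2.47 CPM in obese mice, against 0.669 to 1.56 CPM with a median of 1.21 CPM. The groups did not overlap. Cyp8b1 was higher there by 1.12 ± 0.30 on the log2 scale (SE, adjusted p = 0.00427).

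At 2 weeks iWAT Cyp8b1 was 2.91 to 4.36 CPM with a median of 3.14 CPM, against 0.729 to 2.97 CPM with a median of 1.62 CPM, and 1 lean mouse reached the regression range. The log2 fold change was 0.94 ± 0.29 (adjusted p = 0.0192), and without regression replicate 5 the adjusted p was 0.05001. Liver marker genes summed to 6.92 to 18.0 CPM in obese iWAT and 39.2 to 60.4 CPM in lean iWAT of the same time.

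Cyp11a1, which starts steroid synthesis from cholesterol, was called higher in obese iWAT, at 2.58, 1.42, 4.60, 1.48 and 1.38 CPM against 0.418 to 2.23 CPM with a median of 0.844 CPM. Obese replicates 1 and 3 were above every lean mouse and the other 3 were not. Cyp11a1 differed by a log2 fold change of 1.08 ± 0.39 (SE, adjusted p = 0.0294), and the call was lost in 6 of 11 fits (without lean replicate 3, 4, 5 or 6 or obese replicate 1 or 3), at 0.0544 to 0.213. Cyp3a13, a CYP3A enzyme of drug metabolism, was 1.33, 0.854, 1.77, 0.297 and 0.888 CPM in obese iWAT against 0 to 0.670 CPM. Its mean over the 47 iWAT libraries was 0.549 CPM with the obese libraries and 0.492 CPM without them, so the obese values brought it above the minimum of 0.5 CPM. It is 1 of the 12 iWAT members called at obesity, and its values are given as a description only.

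In lean mice the members differed between depots about as often as all genes. The question was which enzymes mark one pad against the other when no mouse is obese, and it was tested within the 24 lean mice with the mouse as a block. Of 33 members 21 were called, 12 higher and 9 lower in eWAT, which is 63.6% beside 59.3% of all genes (28.1% higher and 31.2% lower). Cyp2d9, Cyp2d26, Cyp2j13, Cyp4f15 and Cyp3a13 are 5 of the 21, and as members through 1 depot alone they were partly chosen for that difference. Of the 28 members of both depots 16 were called, 8 higher and 8 lower, or 57.1%. Cyp2s1, a P450 of epithelia, had 7.68 to 19.8 CPM in eWAT with a median of 13.7 CPM, against 0.273 to 3.31 CPM in iWAT with a median of 0.729 CPM. Cyp2e1 had 949 to 2907 CPM with a median of 1709 CPM, against 397.2 to 1239 CPM with a median of 694 CPM. Both were higher in eWAT in 24 of 24 mice, by 3.73 ± 0.22 for Cyp2s1 (SE, adjusted p = 7.7e-19) and by 1.38 ± 0.12 for Cyp2e1 (adjusted p = 1.26e-13) on the log2 scale.

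Cyp2f2 was the reverse, at 7.30 to 37.4 CPM in lean eWAT with a median of 15.9 CPM, against 26.2 to 99.1 CPM in lean iWAT with a median of 52.1 CPM. It was lower in eWAT in every one of the 24 mice, with a log2 difference of -1.52 ± 0.11 (SE, adjusted p = 1.96e-15). Cyp46a1, the cholesterol hydroxylase best known from neurons, was higher in eWAT in 24 of 24 mice (1.00 ± 0.16, adjusted p = 1.08e-06). Cyp2u1 was lower in eWAT in 22 of 24 mice (-0.63 ± 0.07, adjusted p = 7.61e-10). The mesothelial signal given above also separated the depots, and its part in the Cyp2s1 difference was not tested.

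Responses to obesity that differed between depots were fewer. The difference of the obese-minus-lean effect between eWAT and iWAT was called for 1 member at obesity, beside 1.32% of all genes, and for 3 at 2 weeks, beside 8.42%. For Cyp2f2 the eWAT effect was lower than the iWAT effect by 1.95 on the log2 scale at obesity (-1.95 ± 0.42, SE, adjusted p = 0.00867), and at 2 weeks the difference was -1.83 ± 0.39 (adjusted p = 0.00323). For Cyp2e1 it was -1.27 ± 0.36 at obesity (adjusted p = 0.0625) and -1.43 ± 0.33 at 2 weeks (adjusted p = 0.00567). For Cyp1b1 at 2 weeks it was 0.86 ± 0.25 (adjusted p = 0.0245). At 6 and 12 weeks 0 members were called by edgeR, beside 0.597% and 0.0542% of all genes, with 3 and 6 at an unadjusted p under 0.05.

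Several members stood high or low in both depots of the same mouse, at a median correlation equal to that of all genes. For each of the 28 shared members the log2 CPM of every mouse was taken relative to the mean of its own group, and the 47 mice were then compared between depots. Pearson's r ranged from -0.20 to 0.86 with a median of 0.23, and over all 13564 genes tested in both depots the median was 0.23 too. A permutation test (two-sided, 100000 resamples, adjusted over 28 members) passed for 10 members, all positive, the lowest at r = 0.39. That r or more was reached by 35.7% of the 28 members and by 22.9% of all genes. The cut-off was taken from the members that passed, so the first share is fixed by them and the 2 shares show no excess. Cyp2e1 had r = 0.86 and Spearman's rho = 0.85 (adjusted permutation p = 0.00014 for each, from the smallest p these resamples can give, 1e-05), and 40 of 47 mice lay on the same side of their group mean in both depots. Its r was 0.85 without the 2 mice farthest from the median, and 0.87 and 0.88 within replicates 1 to 3 and 4 to 6. The deviations are from the mean of the whole group, so a difference between the 2 runs of mouse numbers stays in these values. The permutation did not keep the runs apart either.

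Cyp2f2 had r = 0.71 and rho = 0.68 (adjusted permutation p = 0.00014), with 38 of 47 mice on the same side and r = 0.65 without the 2 farthest mice. Cyp26b1 had r = 0.65 and rho = 0.63, and r = 0.57 without the 2 farthest. Cyp1b1 had r = 0.61 and rho = 0.57, with 0.43 within replicates 1 to 3 and 0.70 within replicates 4 to 6. Cyp4v3 (0.60), Cyp27a1 (0.57), Cyp4f17 (0.57), Cyp2j9 (0.41), Cyp8b1 (0.39) and Cyp4b1 (0.39) were the others. Both depots of a mouse share its cage, diet intake and run of mouse numbers, and their part was not tested.

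**Figure D4:**
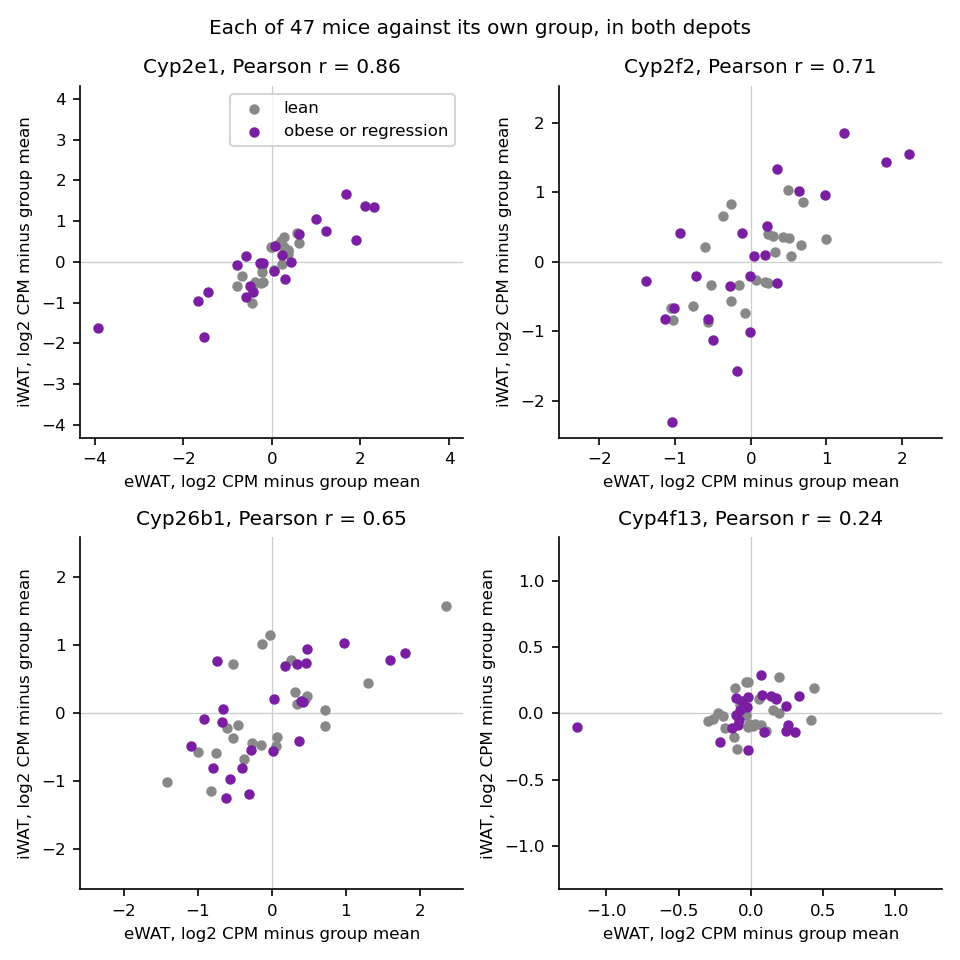
Each point is 1 of 47 mice, placed by its log2 CPM minus its group mean in eWAT (horizontal) and iWAT (vertical), grey for lean and purple for obese or regression mice. Cyp2e1, Cyp2f2 and Cyp26b1 spread along the diagonal with r of 0.86, 0.71 and 0.65, and Cyp4f13 does not, with r = 0.24.

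The 4 members of eWAT alone were high in some libraries and near 0 in others. Cyp2d9 had at least 1 CPM in 18 eWAT libraries and less in 29, and the highest iWAT value was 0.231 CPM. In the 18 libraries the summed markers of ciliated efferent duct cells, which join testis and epididymis, were 107 to 400 CPM, and in the 29 they were 7.08 to 106 CPM. Cyp2j13 was at least 1 CPM in 20 libraries with cilia sums of 87.4 to 400 CPM, against 7.08 to 59.0 CPM in the other 27. Cyp4f15 was at least 1 CPM in 17 libraries (sums 87.4 to 400 CPM) and less in 30 (7.08 to 116 CPM). Cyp2d26 was at least 1 CPM in 15 (116 to 400 CPM) and less in 32 (7.08 to 148 CPM). For Cyp4f15 and Cyp2d26 the sums of the high and low libraries overlapped. All 8 duct markers summed to 5.49 to 13.2 CPM in iWAT.

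Libraries with a cilia sum of at least 40 CPM numbered 22 of 47, and they were spread unevenly. They included 6 of 6 lean and 1 of 6 regression mice at 12 weeks, 2 lean and 0 regression mice at 6 weeks, 2 lean and 4 regression mice at 2 weeks, and 3 lean and 4 obese mice at obesity. None of Cyp2d9, Cyp2j13, Cyp4f15 and Cyp2d26 was called by edgeR against lean mice at any time, with the smallest adjusted p at 0.122, for Cyp2d9 at 6 weeks. The eWAT difference of Cyp26b1 at 12 weeks lies in the comparison with the most uneven split, as given above. Duct signal and group largely go together there, so their parts in that difference cannot be told apart.

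**Figure D5:**
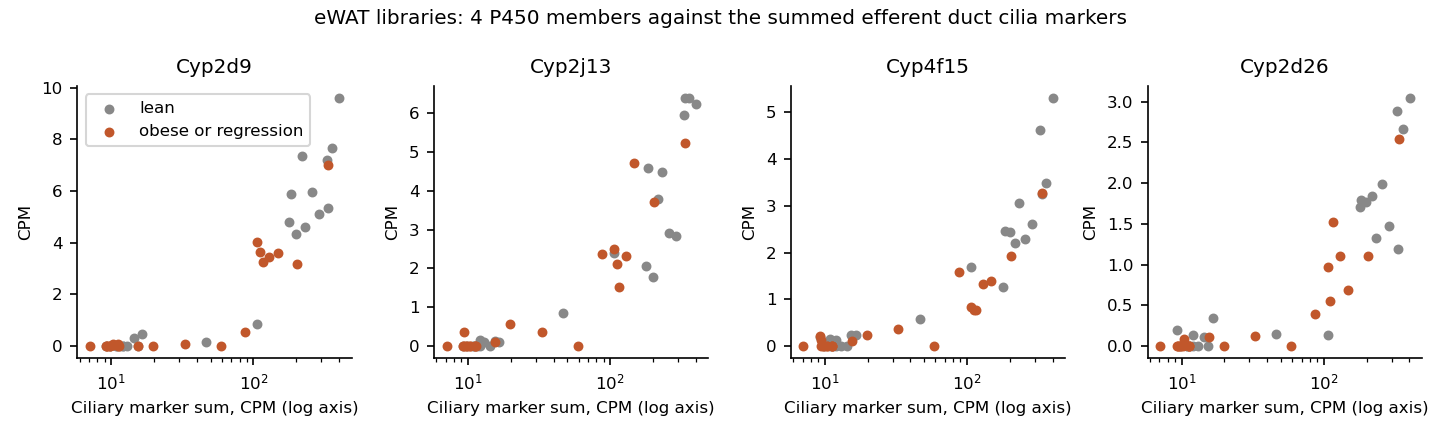
CPM of the 4 members of eWAT alone in each of the 47 eWAT libraries against the summed CPM of 8 efferent duct cilia markers (log axis), grey for lean and orange for obese or regression mice. Where the sum is low all 4 are near 0, and the highest values are 9.59 CPM for Cyp2d9, 6.38 CPM for Cyp2j13, 5.30 CPM for Cyp4f15 and 3.04 CPM for Cyp2d26.

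The proteins that pass electrons to P450 enzymes were tested beside the members. Of 10 electron donors, 4, 5, 1 and 1 were called lower in eWAT at obesity and at 2, 6 and 12 weeks, 5, 2, 0 and 0 in iWAT, and none was called higher. Of all genes 9.31%, 17.1% and 4.51% were lower in eWAT at obesity, 2 and 12 weeks, and 15.5% and 9.37% in iWAT at obesity and 2 weeks. Por, the oxidoreductase that feeds the microsomal enzymes, was lower at obesity by 0.59 on the log2 scale in eWAT (-0.59 ± 0.18, adjusted p = 0.0135), and its iWAT value was -0.44 ± 0.16 (adjusted p = 0.0301). Fdx1, the adrenodoxin of the mitochondrial enzymes, stood at -0.84 in eWAT and -0.83 in iWAT at obesity. Cyb5b, a cytochrome b5, was lowest at 2 weeks, at -1.67 (adjusted p = 1.78e-06) and -1.56 (adjusted p = 2.35e-05).

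Of 10 genes that make or break down haem, the P450 cofactor, 3 were higher and 5 lower in eWAT at obesity, and 1 and 4 in iWAT. The all-gene shares beside these lists are 14.1% higher and 9.31% lower in eWAT at obesity, 18.6% and 17.1% at 2 weeks, and 14.7% and 15.5% in iWAT at obesity. Alas1, the rate-limiting enzyme of haem synthesis, was higher at obesity (0.72, adjusted p = 0.00562 in eWAT and 0.70, adjusted p = 0.000376 in iWAT), and Alad, the next enzyme, was lower (-0.85 and -1.09). Among 12 tested steroid-handling genes of eWAT 1 was higher and 4 lower at obesity. Hsd11b1, which regenerates corticosterone, stood at -3.14 in obese eWAT (adjusted p = 9.18e-09) and -2.94 in obese iWAT (adjusted p = 1.19e-08). Of 12 regulators 2 were higher and 0 lower in eWAT at obesity and 5 and 1 at 2 weeks. Of 6 tested epoxide hydrolases and sister enzymes 3 were higher and 1 lower in eWAT at obesity. Tbxas1, the thromboxane synthase that belongs to the P450 superfamily under another symbol, was higher in eWAT at all 4 times (1.98, 2.51, 1.78 and 2.29).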

How the data were processed

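Poly(A) RNA of 94 libraries (eWAT and iWAT of 47 mice) was sequenced, and the deposited tables give raw read counts per gene and library, 1 table per depot, made by the authors. The submitters' processing notes name STAR 2.4.1c, build mm10, R 4.2.2 and DESeq2 1.38.3, without roles. No source used here gives the counting program, the annotation or the use of strand, so reads of overlapping genes on opposite strands (Cyp2t4 and Egln2, Cyp2f2 and Gm15883) may not be separated. Groups come from the labels. Replicates are separate mice, some of which shared a cage.

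Counts were normalised by TMM and tested with edgeR 4.0.16 (R 4.3.3, filterByExpr, 1 fit over the 8 groups of a depot, quasi-likelihood F test, Benjamini-Hochberg adjustment over 14323 genes in eWAT and 13899 in iWAT). Depots were compared in 1 fit of all 94 libraries with the mouse as a block. CPM values use TMM library sizes. The obesity fits were also run on simulated counts. These held no runs of mouse numbers and no neighbouring tissue, so they say nothing about the effect of either. Libraries held 1318944 to 34327987 counts. The floor given for a library without reads of a gene covers counting error only. The SE values belong to the quasi-likelihood test, which also takes in variation between mice. Alternatives were DESeq2 1.42.0, limma 3.58.1 with a random block, other scaling, no filter, a minimum of 1 CPM, mouse numbers as terms, neighbouring-tissue signals and leaving out each library. Replicates 1 to 3 and 4 to 6 of the groups come from 2 runs of mouse numbers, which the labels do not explain. Positions and exon lengths are from GENCODE M21 (GRCm38), which held no Cyp2c44.

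Every member could be named. Values per mouse were to be given for members with a mean of at least 2 CPM in a depot that were called against lean mice, at most 14 per depot by smallest adjusted p, and for the 3 of highest level. Values of other members (Cyp1b1 and Cyp2r1 in iWAT, Cyp27a1, Cyp3a13, Cyp4a32, Cyp4f39, Cyp8b1 and Cyp11a1) were added after they were seen. Of each partner list the 2 called genes with the largest change per comparison were to be named, and Por, Ahr, Alas1, Fdx1, Aldh1a1 and Rbp4 in any case. The text names only part of these, and not in every comparison. Among those left out are Hmox1, called higher in eWAT at every time, and Adh1, Dhrs3, Pgrmc2, Ppara and Rara. The members and the gene lists were chosen with earlier results of these data known.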

Additional observations from a re-analysis of the deposited data

Results flagged for a closer look

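Of 176 groups of 5 or 6 libraries of the named members, 14 held 1 library far from the rest, 12 high and 2 low. The cut-offs flag about 1 in 20 groups by chance if values are normally distributed. They were applied to CPM without a log scale, so the chance share here is not known. In eWAT Cyp26b1 was 157 CPM in lean replicate 1 of 12 weeks (next 27.6 CPM), 32.8 CPM in lean replicate 1 of 6 weeks (next 16.4 CPM) and 42.3 CPM in regression replicate 3 of 6 weeks (next 18.5 CPM). In iWAT Cyp26b1 was 23.6 CPM in lean replicate 2 of 2 weeks (next 11.39 CPM). Cyp2d22 was lowest at 70.9 CPM in eWAT lean replicate 3 of the obesity time (next 81.1 CPM), highest at 100.6 CPM in eWAT regression replicate 3 of 12 weeks (next 85.3 CPM) and lowest at 44.9 CPM in iWAT regression replicate 2 of 12 weeks (next 71.6 CPM).

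The eWAT of regression replicate 4 at 6 weeks stood high for both Cyp2e1 (2622 CPM, next 1311 CPM) and Cyp2f2 (15.1 CPM, next 3.96 CPM). Regression replicate 6 of 12 weeks had 32.1 CPM of Cyp2f2 in eWAT (next 8.44 CPM). Cyp4f17 was 38.9 CPM in eWAT lean replicate 6 of 12 weeks (next 21.1 CPM). Cyp4v3 was 140.1 CPM in eWAT regression replicate 2 of 2 weeks, the shallowest library (next 102.6 CPM), and 88.7 CPM in iWAT lean replicate 2 of 6 weeks (next 59.5 CPM). Cyp2ab1 was 3.24 CPM in iWAT lean replicate 1 of the obesity time (next 1.76 CPM).

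Effects that differed by a test of the difference itself were found between depots and between times. The eWAT-minus-iWAT difference of the effect at 2 weeks was 0.86 for Cyp1b1, -1.43 for Cyp2e1 and -1.83 for Cyp2f2 on the log2 scale, and at obesity it was -1.95 for Cyp2f2. From obesity to 12 weeks the difference from lean changed by -3.16 for Cyp26b1 in eWAT, and in iWAT by -2.94 for Cyp26b1, 0.75 for Cyp2d22 and -0.73 for Cyp4v3. From obesity to 2 weeks it changed by 0.95 for Cyp2d22 in iWAT.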

How the results depend on the processing

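No called difference changed direction under any alternative. Differences that were not called were not checked for this, apart from Cyp2e1 in eWAT at obesity and 2 weeks. Within a depot 9 of 43 called pairs of member and comparison stayed called under every alternative and omission run. Among them the iWAT changes from obesity, of Cyp26b1 to 12 weeks and Cyp2d22 to 2 weeks, had no split fit and no fit of the compared groups alone. They thus met 8 alternatives, where comparisons with lean mice had up to 11. The minimum of 1 CPM only drops genes and could not change a call. These 9 include Cyp3a13 in obese iWAT, a member only through the obese libraries, so its place among them is no support. Between depots only scaling, the filter, the CPM minimum and the 5 obese mice were varied, which kept 4 of 4 differences in response. No lean or regression mouse was left out. The differences at 2 weeks hold no obese mouse, so these omissions could not test them. With 3 mice per group or fewer, replicates 1 to 3 alone gave 2, 3 and 0 called members in eWAT at obesity, 2 and 6 weeks and 3 and 2 in iWAT at obesity and 2 weeks, and replicates 4 to 6 alone gave 0 and 0 in eWAT at 6 and 12 weeks and 2 in iWAT at obesity. DESeq2 called 3 members in eWAT at 6 weeks, 2 for the eWAT change from obesity to 2 weeks, 1 in iWAT at 12 weeks and 2 and 2 for the iWAT changes to 2 and 6 weeks. The run of mouse numbers as a term gave 2 in eWAT at 6 weeks and 2 for the iWAT change to 2 weeks. As a random block in limma it ended the Cyp1b1, Cyp2d22 and Cyp4v3 calls named above. The random block also ended the Cyp26b1 calls in iWAT at obesity and 2 weeks and for the eWAT change to 12 weeks. Lost with it too were Cyp2j6 in eWAT at obesity and 2 weeks, and Cyp11a1 and Cyp4f39 in obese iWAT. It gave 0 and 8 in eWAT at 6 and 12 weeks, 0 for the eWAT change to 12 weeks and 1 for the iWAT change to 12 weeks. Fitting the compared groups alone gave 2 in eWAT at 6 weeks, and neighbouring-tissue terms gave 2 in iWAT at 12 weeks and 2 for the iWAT change to 6 weeks. The age call between lean groups became 0 in each depot with neighbouring-tissue terms, no count filter, the compared groups alone, the replicate block or the random block. Apart from fewer mice in the split fits, the cause was not tested. Shares of all genes were not computed under the alternatives or omissions, so these counts and those below are no result about the family.

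Replicate numbers do not pair the mice: of 46 same-numbered pairs 16 correlated above 0.1, from -0.60 to 0.63. With the replicate block 5, 9, 1 and 5 members were called in eWAT and 11, 5, 0 and 0 in iWAT at the 4 times, and Cyp2f2 in obese iWAT had an adjusted p of 0.0649. Leaving out 1 library at a time gave 3 to 7, 8 to 12, 0 to 2 and 4 to 9 called members in eWAT at obesity, 2, 6 and 12 weeks, and 8 to 12, 3 to 7, 0 to 0 and 0 to 0 in iWAT. For the changes from obesity to 2, 6 and 12 weeks it gave 0 to 1, 0 to 0 and 0 to 1 in eWAT and 1 to 2, 0 to 2 and 3 to 3 in iWAT, and 0 to 1 for lean age in each depot. Leaving out each obese mouse gave 20 to 21 for the lean depots and gave 1 to 2, 3 to 3, 0 to 0 and 0 to 0 for the depot differences at the 4 times. Obese mice enter only the difference at obesity, so the other counts could hardly change and say nothing about stability. Cyp3a13 between lean depots (-0.82, adjusted p = 0.0495) was lost without obese mouse 1, 2 or 3 (0.0520 to 0.0521). Depth limits the members near 1 CPM most, as for Cyp2r1 in the shallowest library.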
